A study of Homo sapiens with 8 samples.

Results

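4 human miRNAs known to lower the epidermal growth factor receptor (EGFR) or the signalling below it were followed in PC-3, a human cell line derived from a prostate carcinoma. They were hsa-miR-7-5p, hsa-miR-128, hsa-miR-146a-5p and hsa-miR-146b-5p (the prefix hsa, for human, is left out below), listed by name as miRNAs described to act on this pathway, and they are 4 of the 1887 human miRNAs on the array. The cells were collected 24 h after DMSO (the solvent), 60 µM luteolin (a plant flavonoid), 60 µM gefitinib (an inhibitor of the EGFR kinase), or 60 µM luteolin with 60 µM gefitinib. Each treatment had 2 arrays that the labels call biological replicates, and the luteolin plus gefitinib group was the only one to receive both drugs. The question was whether these drugs change the miRNAs that act on the target of gefitinib. All values come from 1 cell line, at 1 dose and 1 time.

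miRNAs are short RNAs that pair with messenger RNAs, mainly through a seed near the 5′ end, and lower the amount or translation of the message. miR-7-5p acts on EGFR. miR-128 acts on growth factor receptors that include EGFR, and on BMI1, a chromatin repressor. The miR-146 pair is best known for lowering TRAF6 and IRAK1, adaptors of innate immune signalling, and has also been described as lowering EGFR.

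The mature sequences are shown because the seed sets which target sites a miRNA can pair with. All 4 members were matched in RefSeq (GRCh38.p14), miR-128 under its newer name miR-128-3p. They are given 5′ to 3′ with the seed, bases 2 to 8, in capitals.
hsa-miR-7-5p: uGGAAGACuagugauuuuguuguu
hsa-miR-128: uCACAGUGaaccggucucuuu
hsa-miR-146a-5p: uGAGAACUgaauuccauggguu
hsa-miR-146b-5p: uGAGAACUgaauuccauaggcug
miR-146a-5p and miR-146b-5p have the same seed. Counted from 1 at the 5′ end of miR-146a-5p, they differ by G18A and U21C, with miR-146a-5p first, and miR-146b-5p has 1 more base at its 3′ end. miR-7-5p and miR-128 each have a seed of their own among the 4.

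RefSeq places the mature sequences as follows on GRCh38.p14, which is not the build named in the array files. miR-7-5p is made from 3 hairpins, MIR7-1, MIR7-2 and MIR7-3. The sequence table places it in MIR7-1 (chr9:83969811-83969834, minus strand), which lies within the span of HNRNPK, and in MIR7-3 (chr19:4770700-4770723, plus strand), within MIR7-3HG. miR-128 is made from MIR128-1 (chr2:135665446-135665466, plus strand), within R3HDM1, and from MIR128-2 (chr3:35744527-35744547, plus strand), within ARPP21. The array reads the mature miRNA, so the hairpins of origin cannot be told apart. miR-146a-5p comes from MIR146A (chr5:160485372-160485393, plus strand), within the long non-coding RNA gene MIR3142HG. miR-146b-5p comes from MIR146B (chr10:102436520-102436542, plus strand). Whether a hairpin lies in an exon or an intron was not examined.

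The software detected between 395 and 481 miRNAs per array, and 365 were detected on all 8. A total signal is the sum over those probes of a miRNA whose signal exceeds 3 times its own error, and it was scaled so that the 75th percentile of the 365 miRNAs was equal on all arrays. Values below are scaled signals on a linear scale unless they are called log2. Of the 4 epithelial marker miRNAs, miR-200b-3p was detected on all 8 arrays and miR-205-5p on 6, while miR-200c-3p and miR-141-3p were detected on none. Their summed signal lay between 124 and 157 on all arrays, of which miR-200b-3p alone gave 124 to 153. Of the 9 marker miRNAs of blood, liver, nerve and muscle cells, 8 were detected on no array and miR-142-3p on 1 of 8, luteolin replicate 2, at 1.67.

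miR-7-5p was lower wherever gefitinib was present. Its scaled signal was 4.26 and 8.15 in the DMSO replicates and 4.53 and 6.75 in the luteolin replicates. It was 2.14 and 1.89 in the gefitinib replicates and 2.39 and 3.55 in the luteolin plus gefitinib replicates. All 4 arrays with gefitinib lay below all 4 arrays without it, a pattern that 8.12% of the 480 tested miRNAs shared. Averaged by treatment, the signal was 6.20 ± 2.75 after DMSO and 5.64 ± 1.57 after luteolin, against 2.02 ± 0.175 after gefitinib and 2.97 ± 0.825 after both drugs (SD, n = 2 each). In the order of these means, DMSO and luteolin overlapped, while luteolin plus gefitinib lay above gefitinib on both arrays.

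**Figure D1:**
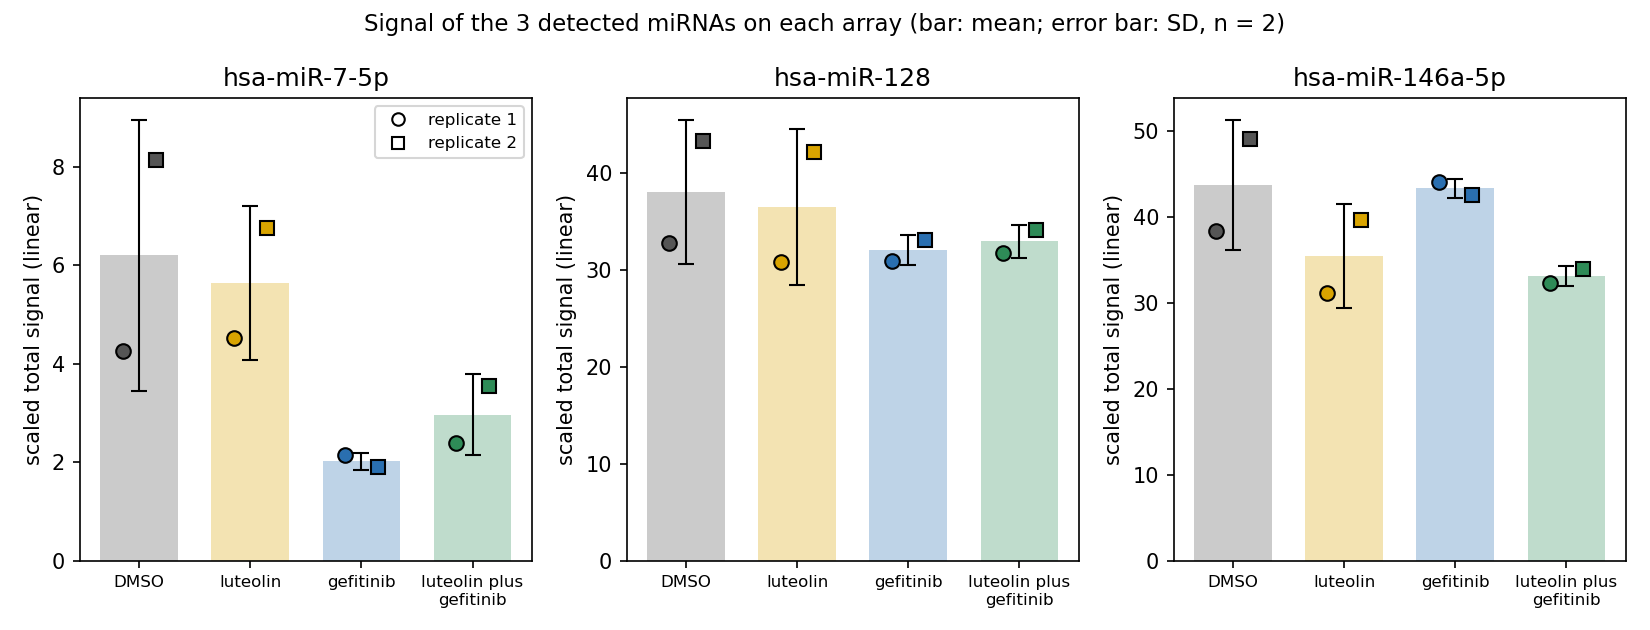
Scaled total signal (linear) of miR-7-5p, miR-128 and miR-146a-5p on each of the 8 arrays, with bars for the mean and error bars for the SD of the 2 replicates (circle, replicate 1; square, replicate 2). The 4 miR-7-5p values with gefitinib run from 1.89 to 3.55 and the 4 without it from 4.26 to 8.15, whereas the miR-128 groups largely overlap.

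Over both pairs of treatments that differ by gefitinib, miR-7-5p was 2.36-fold lower with the drug, a log2 difference of -1.24 (SE 0.28, 95% interval -1.92 to -0.55), with a limma adjusted p of 0.0326. The limma fit used all 8 arrays, and the adjustment ran over the 480 tested miRNAs. In this comparison 80 miRNAs, or 16.7%, were called at an adjusted p under 0.05, against 1 of the 3 tested members. Only 8 miRNAs of the 480, miR-7-5p included, had a log2 difference this negative. Within replicate number 1 the log2 difference was -0.96 and within number 2 it was -1.52.

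The call of miR-7-5p did not hold under every processing. It was lost in 6 of the 15 alternatives run for it, other than leaving out an array, with limma adjusted p values from 0.0530 (median scaling) to 0.936. Leaving out any 1 array except DMSO replicate 1 or luteolin replicate 1 also lost it, with adjusted p values from 0.0625 to 0.138. The log2 difference stayed below 0 under each of these, between -1.47 and -0.09.

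**Figure D2:**
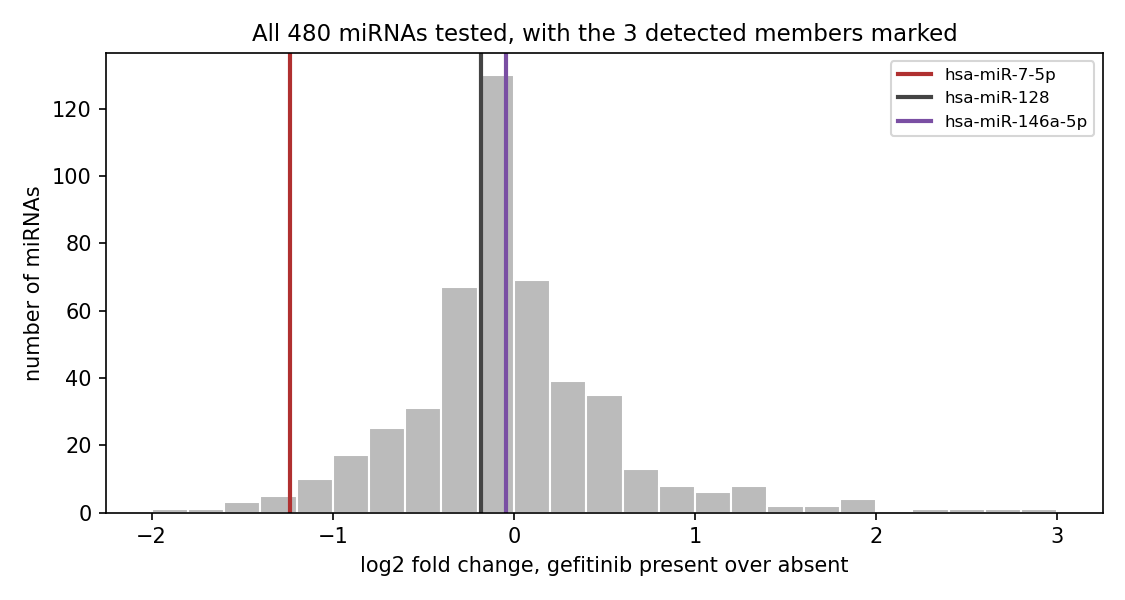
Histogram of the log2 fold change with gefitinib present over absent for the 480 tested miRNAs, in counts of miRNAs, with lines at the 3 tested members. miR-7-5p, at -1.24, stands in the low tail, while miR-128 (-0.18) and miR-146a-5p (-0.04) lie near the median of all miRNAs, -0.09.

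Against DMSO alone, gefitinib gave a log2 difference in miR-7-5p of -1.55 (SE 0.39), which is 2.92-fold lower, but the limma adjusted p was 0.0654 and it was not called. 58 miRNAs (12.1%) were called in this comparison, and in 36% of the tested miRNAs both gefitinib arrays lay below both DMSO arrays, as they did here. The difference passed the threshold in 7 of 17 alternatives (limma adjusted p 0.0293 to 0.0484), of which 2 were chosen after the probe values had been seen. In the other 10 the adjusted p ran from 0.0652 to 1. The log2 difference was below 0 in all 17, but fell in size to -0.84 with the 75th percentile over all miRNAs, -0.30 with log2 of the signal plus 16 and -0.13 with normexp (offset 50), quantile normalization and a mean over spots, which were changed together. It did not pass when any 1 array was left out. The replicate number is also the first index of the position on the slide, on all 8 arrays. Within number 1 the log2 difference was -0.99 and within number 2 it was -2.10, and with the number as a block the limma adjusted p was 0.0373. Luteolin plus gefitinib against DMSO gave a log2 difference of -1.02 (SE 0.39, limma adjusted p 0.178), with both arrays again below both DMSO arrays, as in 33.3% of miRNAs, and 12.1% were called. Without DMSO replicate 2, the higher of the pair, the gefitinib difference was -1.08 and that of luteolin plus gefitinib was -0.55.

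Luteolin alone left miR-7-5p within the spread of the DMSO arrays, with a log2 difference of -0.09 (95% interval -1.06 to 0.88). In this comparison 0 of 3 tested members and 2.08% of all miRNAs were called by limma. At an unadjusted p under 0.05 there were 0 members by limma or by the methods' t-test. Over all 480 miRNAs these unadjusted counts were 41 by limma and 26 by the methods' t-test. Luteolin plus gefitinib was below luteolin on both arrays (log2 difference -0.93, limma adjusted p 0.343), a pattern of 17.9% of miRNAs, and 1.88% were called. It was above gefitinib on both arrays (log2 difference 0.53, limma adjusted p 0.737), as were 18.8% of miRNAs, and 4.58% were called. The interaction, which asks whether both drugs together depart from the sum of their single log2 effects, was 0.62 for miR-7-5p (95% interval -0.75 to 1.99), and 3.33% of miRNAs and 0 of 3 members were called by limma.

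**Figure D3:**
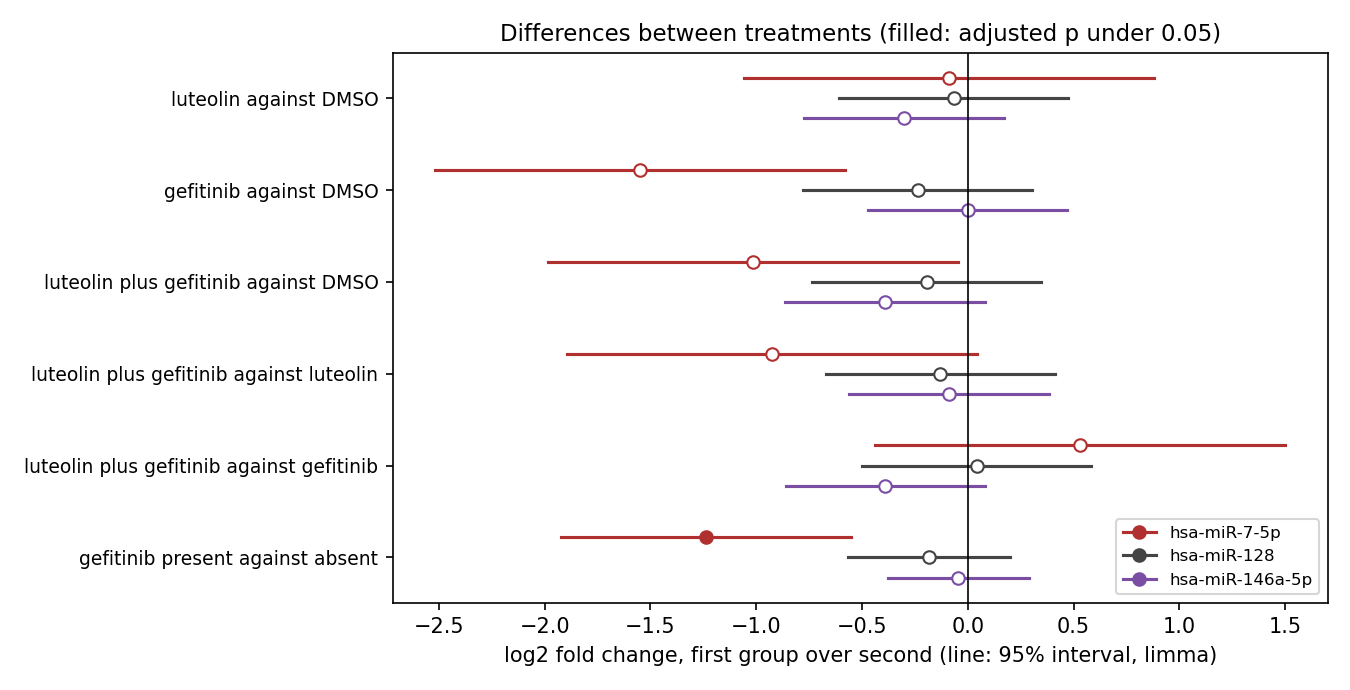
Log2 fold changes of the 3 tested miRNAs in 6 comparisons, with lines for the 95% interval from limma and filled points for an adjusted p under 0.05. Only miR-7-5p with gefitinib present against absent, at -1.24, is filled, and each interval of miR-128 and miR-146a-5p crosses 0.

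The signal of miR-7-5p was near the detection limit, and the array reads it with 2 probes of 15 spots each. The brighter probe was 4.55 to 7.57 times its error and counted on all 8 arrays. Its unscaled signal was 3.997 and 5.32 in DMSO, 3.41 and 4.68 in luteolin, 2.49 and 2.24 in gefitinib, and 2.65 and 2.75 in luteolin plus gefitinib. Without any scaling, the 4 arrays with gefitinib were therefore also below the 4 without it on this probe. The dimmer probe was 2.01 to 4.01 times its error and entered the total only on DMSO replicate 2 and both luteolin arrays.

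Part of the fall in the total therefore came from the dimmer probe leaving the sum. With both probes summed on every array, the scaled values were 5.63 and 8.15 in DMSO, 4.53 and 6.75 in luteolin, 2.88 and 2.66 in gefitinib, and 3.56 and 4.94 in luteolin plus gefitinib. Luteolin plus gefitinib replicate 2 then exceeded luteolin replicate 1, so the arrays with and without gefitinib overlapped. The log2 difference with gefitinib present was -0.85 in place of -1.24 (limma adjusted p 0.0307), and with the brighter probe of each miRNA alone it was -0.92 (limma adjusted p 0.0231). Both summaries were chosen after the probe values had been seen. In gefitinib the dimmer probe was at 2.07 and 2.01 times its error, with 0 and 1 of its 15 spots well above background, so no ratio is given for it. On the brighter probe, the mean of the log2 scaled signals differed between gefitinib and DMSO by -1.33.

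**Figure D4:**
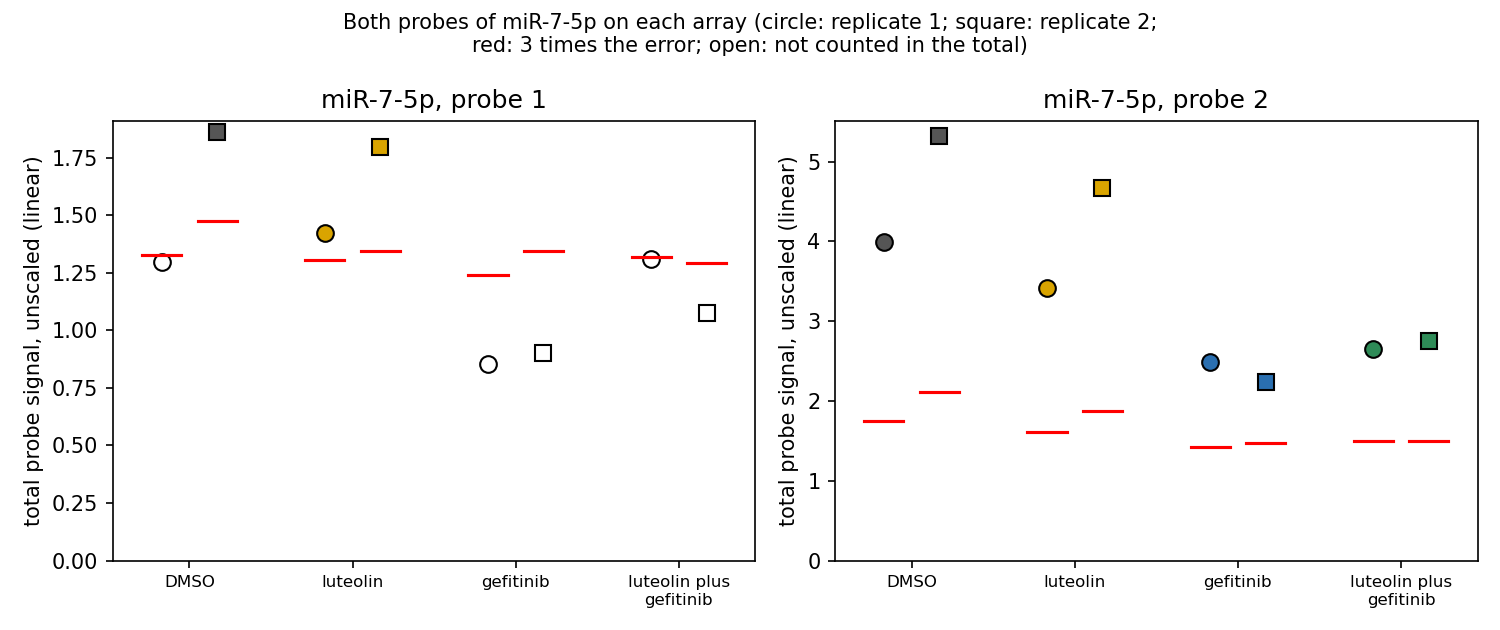
Unscaled signal (linear) of the 2 probes of miR-7-5p on each array, with red lines at 3 times the error and open symbols for values that did not enter the total (circle, replicate 1; square, replicate 2). The brighter probe exceeds its line on all 8 arrays, and the dimmer one on DMSO replicate 2 and both luteolin arrays.

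miR-128 was far above its error on every array, and no comparison of it was called. Its scaled signal was 32.9 and 43.3 in DMSO and 30.8 and 42.2 in luteolin. It was 31.0 and 33.1 in gefitinib and 31.8 and 34.2 in luteolin plus gefitinib. Each drug group overlapped the DMSO group. The log2 difference from DMSO was -0.07 with luteolin (95% interval -0.61 to 0.48), -0.24 with gefitinib (-0.78 to 0.30) and -0.20 with both (-0.74 to 0.35). Without scaling the first 2 of these are 0.09 and 0.13, but the median of all miRNAs then moves by 0.13 and 0.36 as well. These intervals reach as low as -0.78, so a fall of that size lies within the error. Both probes were 9.25 to 9.85 times their error, with all 15 spots well above background on every array.

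miR-146a-5p was lowest on average in the 2 groups that received luteolin, but none of its comparisons was called. Luteolin present against absent, over all 8 arrays, was not among the 7 comparisons and was not tested. Its scaled signal was 38.4 and 49.1 in DMSO, 31.2 and 39.7 in luteolin, 44.1 and 42.6 in gefitinib, and 32.3 and 33.9 in luteolin plus gefitinib. The luteolin and gefitinib groups each overlapped DMSO. Luteolin plus gefitinib lay below DMSO on both arrays (log2 difference -0.39, SE 0.19, limma adjusted p 0.274) and below gefitinib on both (log2 difference -0.39, limma adjusted p 0.521), as did 33.3% and 32.3% of all miRNAs. The difference from gefitinib was the only one among the members with an unadjusted p under 0.05 by the methods' t-test, which 86 of all 480 miRNAs reached in that comparison, and its adjusted p by that test was 0.133. Luteolin against DMSO gave a log2 difference of -0.30 (SE 0.19, limma adjusted p 0.781), with -0.30 within replicate number 1 and -0.31 within number 2. Gefitinib against DMSO gave 0.00 on the log2 scale (95% interval -0.47 to 0.47) and 0.37 without scaling, about as far as the median of all miRNAs moved.

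miR-146b-5p was detected on none of the 8 arrays, although miR-146a-5p, which has its seed, was detected on all of them. The first of its probes gave unscaled signals of 0.396 to 1.07, at 0.942 to 2.54 times the error, with 0 of 15 spots well above background on every array. The second lay between -0.15 and 0.23. No fold change was computed for it, and a level below the detection limit of the array cannot be told apart from none.

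The other products of these hairpins gave little signal. Of 6 partner strands listed, 4 were on the array, and miR-7-2-3p, miR-146a-3p and miR-146b-3p were detected on none. miR-7-1-3p, the partner of miR-7-5p in MIR7-1, was detected at 2.29 in DMSO replicate 2, 1.73 in luteolin replicate 2, and 1.35 and 1.37 in the gefitinib replicates, and not on the other 4 arrays. Its presence therefore did not separate the arrays with gefitinib from those without. With all its probes summed, whether or not they exceeded 3 times their error, it read 2.20 and 3.47 in DMSO, 1.57 and 2.56 in luteolin, 2.11 and 1.998 in gefitinib, and 1.24 and 1.17 in luteolin plus gefitinib. The arrays with both drugs were the lowest, and luteolin replicate 1 lay below both gefitinib arrays. No fold change is given for it, because it was tested only through the gefitinib group and the undetected arrays enter the fit at the floor.

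Other miRNAs described as acting on ERBB receptors or on RAS below them were set beside the members. Of 12 listed, 7 were tested and 5 were detected on no array: miR-133a, miR-133b, miR-145-5p, miR-491-5p and miR-143-3p. None of the 7 was called by limma in any of the 7 comparisons, and 0 had an unadjusted limma p under 0.05, where 41 to 128 of all 480 miRNAs did in these comparisons and 1.88% to 16.7% were called. By the methods' t-test 1 had an unadjusted p under 0.05 with gefitinib against DMSO, where 118 of all 480 miRNAs did, and 0 in the other 4 comparisons that it covers. Their median log2 difference with gefitinib against DMSO was -0.19, beside -0.10 over all 480 miRNAs. The lowest was miR-205-5p and the highest miR-542-5p, at 0.60 (SE 0.73, limma adjusted p 0.711). miR-542-5p was not detected on luteolin plus gefitinib replicate 2, which enters the shared fit at the floor. Its total was 2.10 and 1.86 in DMSO and 2.89 and 3.11 in gefitinib. With all its probes summed it read 3.31 and 2.95 in DMSO and 2.89 and 3.11 in gefitinib, so the groups overlapped. miR-205-5p read 5.37 and 1.72 in the DMSO replicates and 3.01 in gefitinib replicate 1. It was not detected on gefitinib replicate 2, which enters the fit at the floor, so no fold change is given for it.

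Of 7 miRNAs described as changing with EGFR or MET signalling, 6 were tested and miR-203a was detected on no array. None was called by limma in any comparison. At an unadjusted p under 0.05, limma gave 1 with gefitinib against DMSO, 2 with both drugs against gefitinib and 1 with gefitinib present against absent, and the methods' t-test gave 2 and 1 in the first 2 of these. Over all 480 miRNAs the limma counts were 114, 60 and 128, and those of the methods' t-test were 118 and 86. The lowest was miR-221-3p, which lowers the cell cycle inhibitor p27, at 473 ± 43.7 in DMSO and 337 ± 18.0 in gefitinib (SD, n = 2 each). Its log2 difference was -0.49 (SE 0.14, limma adjusted p 0.0909). The highest was miR-30b-5p at 0.14 (SE 0.29, limma adjusted p 0.831). The median of the 6 was -0.01.

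Across the 8 arrays, the profile of miR-7-5p was most like those of miR-1260a (Pearson r 0.968), miR-720 (0.966) and miR-149-5p (0.958), out of 364 miRNAs compared. miR-128 was most like miR-342-3p (0.978), miR-324-5p (0.976) and miR-29a-3p (0.974). miR-146a-5p was most like miR-362-3p (0.933), miR-574-3p (0.915) and miR-660-5p (0.896). These are descriptions over 8 arrays that share treatments and replicate numbers: replicate 2 read above replicate 1 for all 3 detected members in DMSO, luteolin and luteolin plus gefitinib.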

How the data were processed

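PC-3 miRNAs were measured on 8 one-colour Agilent arrays, 2 for each of 4 treatments named in the labels, on 1 slide and in 1 scan. The authors extracted the images with Feature Extraction 10.7.3.1 (per the file headers), and the deposited intensity values are background-subtracted with no scaling between arrays. The total per miRNA equals the sum of its probes above 3 times their error, within 0.5% for 100% of 3582 detected values.

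From there, totals were scaled to the 75th percentile of the 365 miRNAs detected on all 8 arrays, raised to a floor of 0.609 and put on the log2 scale. A miRNA was tested if any treatment had it detected in duplicate, which held for 480, and limma 3.58.1 in R 4.3.3 fitted the 4 group means together, with two-sided p-values adjusted by Benjamini-Hochberg over the 480. The fit had 4 residual degrees of freedom. An exact permutation test of 2 against 2 arrays cannot go below 0.333, so none was used for pairs of groups. That limit does not apply to gefitinib present against absent, which sets 4 arrays against 4, but no permutation test was run there either. The number of arrays, 2 per group, limits the precision. Whether the replicates came from separate cultures is known only from the word biological in the labels. The script was tested on simulated data. Figures were drawn with Python 3.11.15, pandas 2.3.3 and matplotlib 3.10.9.

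The text names the 4 members, their hairpin partners, the lowest, highest and called miRNAs of both EGFR lists, and the 3 miRNAs most like each detected member by Pearson's r. The members and lists were chosen with earlier results of these data known. The study's own test was a Student test with a threshold on p and on fold change. It was run on the same log2 values as the methods' t-test. Alternatives numbered 15 planned, 8 that left out 1 array, and 2 added after the probe values were seen. The methods' t-test and the fit of the compared groups alone covered 5 of the 7 comparisons, and the rest covered all 7.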

Additional observations from a re-analysis of the deposited data

How the results depend on the processing

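Of 513 member values recomputed, 449 kept their direction and side of the threshold, 12 lost a call, 7 gained one and 45 changed sign. None of those 45 was called. In the main fit 12.1% of all 480 miRNAs were called with gefitinib against DMSO and 16.7% with gefitinib present against absent. The number of members called moved in these 2 of the 7 comparisons. With gefitinib against DMSO it went from 0 to 1 (miR-7-5p) with the mean processed signal, the series table, a filter to miRNAs detected on all arrays, detection by spots well above background, the replicate block (limma adjusted p 0.0373), the sum over all probes and the brightest probe, the last 2 added after seeing the data. Leaving out 1 array gave 0 to 0. With gefitinib present against absent it went from 1 to 0 with quantile normalization, the 75th percentile over all miRNAs, median scaling, normexp with quantile normalization, no filter and log2 of the signal plus 16, and ranged from 0 to 1 when 1 array was left out. The replicate block left it at 1. The replicate number, which is also the first index of the position on the slide, went with shared deviations in some groups only. The differences between replicates correlated at 0.91 between DMSO and luteolin, 0.41 between DMSO and both drugs and 0.46 between luteolin and both drugs, and at -0.13, -0.093 and 0.065 between gefitinib and these groups in turn. The reported values are from the fit without the block. The 75th percentile over all miRNAs was planned and is kept here, but on 5 of 8 arrays it falls on 0.1, the value written for an undetected miRNA, so it scales on a placeholder. Under it 0 of 480 miRNAs were called with gefitinib present. The methods' t-test on 480 miRNAs passed both of the study's thresholds for 13 with luteolin, 46 with gefitinib and 44 with both against DMSO. These included 0 members. At a Benjamini-Hochberg adjusted p under 0.05, with no threshold on fold change, the t-test passed 0, 39 and 13 miRNAs in the same comparisons. Uncalled values changed sign as follows, as log2 differences. Without scaling, luteolin against DMSO became 0.062 for miR-7-5p and 0.088 for miR-128, gefitinib against DMSO 0.13 for miR-128 and 0.37 for miR-146a-5p, both drugs against gefitinib -0.30 and the interaction -0.38 for miR-128, and gefitinib present against absent 0.076 for miR-146a-5p. Quantile normalization gave 0.11 for miR-7-5p with luteolin and 0.028 for miR-146a-5p with gefitinib. The placeholder scaling gave miR-128 0.033 with luteolin, 0.060 with gefitinib and 1.25 with both against DMSO, 1.22 for both against luteolin and 0.64 with gefitinib present. It gave miR-146a-5p 0.30 with gefitinib and 1.06 with both against DMSO, 1.26 and 0.76 for both against luteolin and gefitinib, 0.78 with gefitinib present and 0.96 for the interaction, and miR-7-5p 0.35 and 0.42 for both against DMSO and luteolin. For miR-146a-5p with gefitinib against DMSO, the mean processed signal gave 0.025, the deposited series table gave 0.024 and normexp with quantile normalization 0.033, and the last gave 0.0058 with gefitinib present. The brightest probe gave miR-128 -0.093 for both against gefitinib and -0.045 for the interaction. With 1 array left out, miR-7-5p with luteolin ranged from -0.56 to 0.38. The range for miR-128 was -0.29 to 0.16 with luteolin and -0.39 to 0.0047 with both against DMSO, -0.36 to 0.097 for both against luteolin, -0.011 to 0.095 for both against gefitinib and -0.12 to 0.33 for the interaction. For miR-146a-5p it was -0.18 to 0.18 with gefitinib against DMSO, -0.26 to 0.086 for both against luteolin, -0.13 to 0.044 with gefitinib present and -0.27 to 0.090 for the interaction. The cause of these changes was not tested.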
